A study of Mus musculus with 13 samples.

Results

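Genes of the node of Ranvier and its neighbouring axonal domains were followed through cuprizone demyelination and recovery in bulk RNA of the mouse brain hemisphere. The members, 10 of the 55401 genes in the tables, were chosen by symbol: Nfasc, Ank3, Sptbn4, Scn8a, Cntn1, Cntnap1, Cntn2, Cntnap2, Kcna1 and Kcna2. Each symbol matched a single gene that passed the filter on low counts, as did 14985 genes in all. The 13 libraries, 1 per mouse, came from 5 CTL, 4 CPZ and 4 RCV male mice. CPZ mice ate chow with 0.3% cuprizone, a copper chelator that injures mature oligodendrocytes, for 4 weeks and were killed at week 4. RCV mice ate it for 4 weeks and were returned to normal chow for 2 weeks, and CTL mice were kept on normal chow for 6 weeks, so both were killed at week 6 and time on study cannot be told apart from the CPZ condition. The sample labels give an age of 6 to 8 weeks, whereas the methods of the study give C57BL/6J mice somewhat older than that. Those methods count fewer mice than there are libraries. A figure legend of the study instead lists 5 control, 4 CPZ and 4 recovery samples, with bulk RNA-seq for all 13. No group carried a transgene or a deletion.

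Myelinated axons are divided into domains around each gap in the myelin. At the node, voltage-gated sodium channels are held by ankyrin-G, the product of Ank3, which is anchored to the actin skeleton by beta-IV spectrin, the product of Sptbn4. At the flanking paranode, the terminal loops of the oligodendrocyte attach to the axon through glial neurofascin and the axonal pair contactin-1 and Caspr, the products of Cntn1 and Cntnap1. Beyond it, at the juxtaparanode, contactin-2 and Caspr2, the products of Cntn2 and Cntnap2, hold the potassium channels Kv1.1 and Kv1.2, the products of Kcna1 and Kcna2. Most of these proteins are made by neurons, and Nfasc and Cntn2 are among the members transcribed in neurons and in oligodendrocytes. A hemisphere contains both, so that fewer cells of a type and less RNA per cell cannot be told apart in these data.

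The libraries held between 4605100 and 8197289 estimated counts, and members had between 394 and 5161 counts in a library. Counting error alone was 1.39% to 5.04% of a value, and the coefficient of variation (CV) between mice of a group was 2.24% to 20.5%. Over the 30 pairs of a member and a group, the CV exceeded 1.5 times the highest counting error in 23 and was at or below that error in 2, Sptbn4 in CPZ (CV 2.59%, counting error up to 2.64%) and Cntnap1 in RCV (CV 2.24%, counting error up to 2.69%). Summed TPM of 10 mature oligodendrocyte genes was 1980 to 3840 in CTL, 1360 to 1890 in CPZ and 2710 to 4510 in RCV. CTL replicate 4, at 1980, was the CTL library closest to the CPZ range. Summed TPM of 10 microglia genes was 437 to 530 in CTL, 1760 to 3920 in CPZ and 709 to 1020 in RCV, and that of 10 pan-neuronal genes was 6050 to 6980 in CTL, 5880 to 6200 in CPZ and 5930 to 6770 in RCV. Summed TPM of 6 astrocyte genes was 1250 to 1600 in CTL, 1950 to 2320 in CPZ and 1650 to 1960 in RCV, and that of 5 endothelial genes was 106 to 124, 94.3 to 111 and 83.0 to 92.1 in the same order. Markers of brain regions also differed between libraries. Summed TPM of 6 choroid plexus genes was 9.89 and 11.7 in RCV replicates 3 and 4 but 749 to 5130 in the other libraries. Summed TPM of 7 hippocampus genes ran from 14.1 in RCV replicate 4 to 117 in RCV replicate 3, and that of 7 striatum genes was 398 to 1910 in CTL, 573 to 1180 in CPZ and 129 to 1720 in RCV. The part of the choroid plexus and striatum markers in the results was not tested, and a hippocampus score was a covariate in an alternative fit given further on. No cerebellum sum exceeded 8.89, and up to 3 of the 6 cerebellum genes were at 0 in a library.

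Cntn2 was the member with the largest change in the comparison of CPZ with CTL, and Cntn1 is its paralog at the paranode. Their promoters are shown because the Cntn2 to Cntn1 ratio is given further on. Cntn2 lies at chr1:132509427-132543256 on the minus strand and Nfasc at chr1:132564690-132741797 on the same strand, 21433 bases away (GENCODE M21, GRCm38). Cntn1 lies at chr15:92051165-92341967 on the plus strand. The windows below run from 250 bases before to 50 bases after a RefSeq start in GRCm38.p6 and are written 5′ to 3′ on the strand of the gene, with CpG dinucleotides in capitals.
Cntn2 promoter, chr1:132542891-132543190, minus strand: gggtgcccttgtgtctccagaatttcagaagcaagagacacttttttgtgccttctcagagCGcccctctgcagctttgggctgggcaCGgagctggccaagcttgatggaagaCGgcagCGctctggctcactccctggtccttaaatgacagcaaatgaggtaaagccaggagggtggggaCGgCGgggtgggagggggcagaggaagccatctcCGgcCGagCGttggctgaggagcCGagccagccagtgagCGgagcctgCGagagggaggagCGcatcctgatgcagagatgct
Cntn1 promoter, chr15:92050915-92051214, plus strand: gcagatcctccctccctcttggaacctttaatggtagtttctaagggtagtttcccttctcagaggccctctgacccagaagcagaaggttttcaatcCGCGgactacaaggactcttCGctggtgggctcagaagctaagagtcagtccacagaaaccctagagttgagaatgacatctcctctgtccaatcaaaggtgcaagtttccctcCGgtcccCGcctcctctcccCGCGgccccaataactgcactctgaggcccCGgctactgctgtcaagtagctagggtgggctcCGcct
The Cntn2 window had a GC content of 61.3% and 13 CpG dinucleotides, and the Cntn1 window 55.3% and 9. Over 32851 mouse promoter windows the medians were 52.7% and 7. RefSeq windows were at hand for 7 of the 10 members, 15 windows in all. A pair of motifs was searched on both strands, ACAAAG, the core bound by SOX proteins, and CTGGCAC, bound by the oligodendrocyte factor MYRF. ACAAAG was in 1 of the 15 member windows, at Scn8a, and in 18.7% of all windows, whereas CTGGCAC was in none of the member windows and in 5.01% of all. Neither was in the Cntn2 or Cntn1 window shown.

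In CTL mice, levels per transcript length, given as mean TPM, ran from 46.4 ± 7.66 for Kcna1 to 253 ± 25.7 for Ank3 (SD, n = 5). Cntn1 was next at 173 ± 14.4 TPM, followed by Nfasc at 122 ± 9.38 and Cntnap1 at 115 ± 4.83. The ranges of Ank3, Cntn1 and Nfasc were apart from each other, whereas those of Nfasc and Cntnap1 overlapped. Scn8a at 95.4 ± 5.81 TPM and Sptbn4 at 92.4 ± 3.61 TPM overlapped, and Sptbn4 lay above Kcna2 at 75.7 ± 9.57 without overlap. Kcna2, Cntn2 at 73.4 ± 11.0, Cntnap2 at 56.5 ± 7 and Kcna1 overlapped in turn with their neighbours in this order. In CPZ mice, Cntn2 had a mean TPM of 42.8 ± 4.08 and Kcna1 one of 42.8 ± 3.29 (SD, n = 4), and both stood at the bottom of the order of means, where Cntnap2 at 48.2 ± 5.05 TPM overlapped with Cntn2. In RCV mice, Cntn2 was again above Cntnap2, at 65.2 ± 16.2 against 49.0 ± 7.61 TPM, with overlapping ranges.

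**Figure D1:**
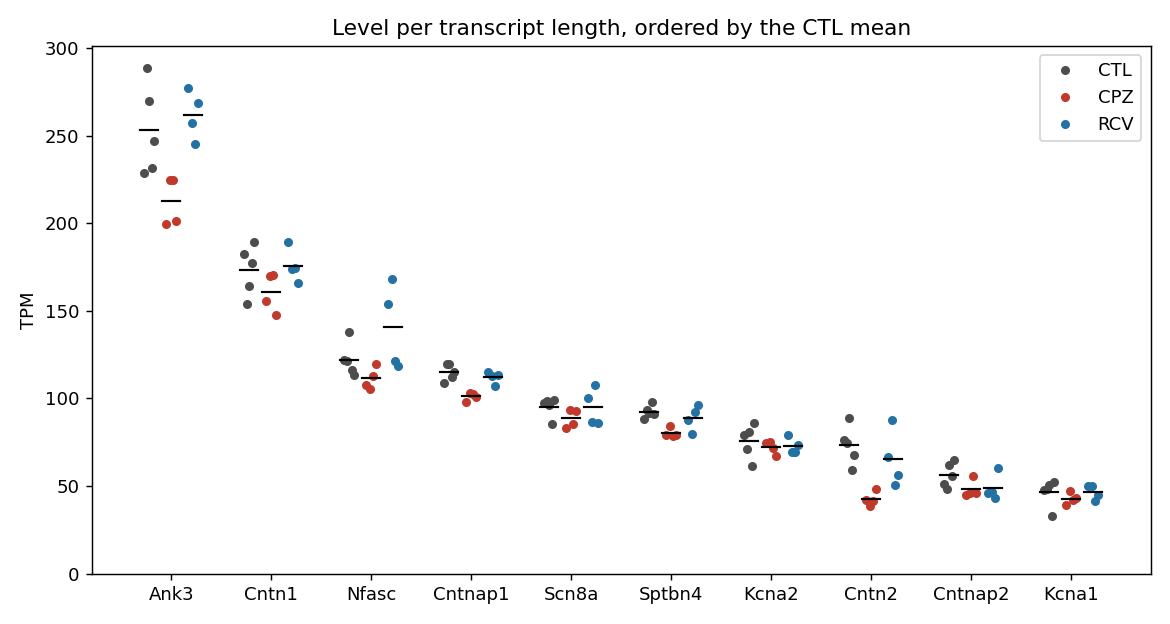
TPM of the 10 members (y axis) in each library, ordered along the x axis by the CTL mean, with points for libraries and lines for group means. Cntn2 had a mean of 73.4 TPM in CTL and 42.8 TPM in CPZ, where it was level with Kcna1.

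The comparison of CPZ with CTL asked which of these genes differed at the end of cuprizone feeding. Cntn2 fell by 41% and Ank3 fell by 13.6%, and the other 8 members did not pass the threshold, an adjusted p (edgeR quasi-likelihood test, Benjamini-Hochberg over all genes) below 0.05. Both calls were lower in CPZ, against 10.2% of all genes called in either direction and 2.5% called lower. All 10 fitted values were below 0, with a median log2 fold change of -0.10 beside -0.02 over all genes, but scaling the libraries to pan-neuronal genes moved the median of all genes to 0.09 and that of the members to 0.01, with 5 of 10 below 0. CPZ and CTL values did not overlap for 4 members (Ank3, Sptbn4, Cntnap1 and Cntn2), all lower in CPZ, beside 4.86% of all genes not overlapping in that direction.

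Cntn2, a GPI-anchored adhesion molecule, had TMM-scaled CPM, a count relative to library depth, of 246, 245, 284, 190 and 220 in CTL replicates 1 to 5. In CPZ replicates 1 to 4 the CPM were 129, 127, 136 and 167, and in RCV replicates 1 to 4 they were 213, 273, 175 and 188. Every CPZ value was thus below every CTL and every RCV value, while CTL and RCV overlapped. The log2 fold change between CPZ and CTL was -0.76 (SE 0.14, 95% interval -1.06 to -0.46, adjusted p = 0.00222 by edgeR). Cntn2 passed the threshold in 27 of 27 alternative settings, left-out libraries included, with log2 fold changes of -0.90 to -0.66. Within the CTL group, the lowest value of 190 CPM was that of replicate 4, in which the summed oligodendrocyte TPM was also the lowest of the group. CTL replicate 4 was also the lowest CTL library for Nfasc, Ank3, Scn8a, Kcna1 and Kcna2. It was not the lowest for Sptbn4, Cntn1, Cntnap1 and Cntnap2. Averaged over the members, log2 CPM in CTL replicate 4 deviated from the CTL mean by -0.143. The low value was thus not particular to Cntn2. The part of the oligodendrocyte markers in the Cntn2 values was not tested.

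Ank3, the scaffold of the node and of the axon initial segment, had CPM of 652, 774, 715, 643 and 689 in CTL replicates 1 to 5. The CPM were 544, 607, 619 and 633 in CPZ replicates 1 to 4, and 716, 718, 682 and 707 in RCV replicates 1 to 4. All 4 CPZ values were below all CTL values and all RCV values. The log2 fold change was -0.21 (SE 0.06, 95% interval -0.35 to -0.08, adjusted p = 0.0469 by edgeR). This call was close to the threshold and was kept in 7 of 27 alternative settings, and it was lost without any of CTL replicates 2, 3 and 5, CPZ replicates 1, 2 and 3, or RCV replicates 1, 3 and 4, with log2 fold changes of -0.22 to -0.16. Scaled to pan-neuronal genes it was -0.11, with an adjusted p of 0.468 by edgeR.

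Sptbn4, the spectrin partner of ankyrin-G, had CPM of 230, 240, 243, 249 and 237 in CTL, and 207, 216, 208 and 218 in CPZ. The values did not overlap, and the log2 fold change of -0.17 (SE 0.06, adjusted p = 0.0542 by edgeR) did not pass the threshold. Cntnap1, which encodes the axonal paranode protein Caspr, had CPM of 289, 317, 316, 292 and 294 in CTL, and 259, 275, 273 and 278 in CPZ. Here too the values did not overlap, with a log2 fold change of -0.15 (SE 0.05, adjusted p = 0.0611 by edgeR). The DESeq2 Wald test put both past the threshold, at adjusted p of 0.0189 for Sptbn4 and 0.0101 for Cntnap1. Sptbn4 also passed by limma-voom (adjusted p = 0.049) and without RCV replicate 2 (adjusted p = 0.0239 by edgeR). Cntnap1 also passed in the 3 limma fits on TPM (adjusted p of 0.0352 to 0.0495), where Ank3 did not (0.0743 to 0.116). Of 27 alternative settings, Sptbn4 passed in 3 and Cntnap1 in 4. Under pan-neuronal scaling the log2 fold changes were -0.07 for Sptbn4 (adjusted p = 0.58 by edgeR) and -0.05 for Cntnap1 (adjusted p = 0.743). In the annotation, Cntnap1 shares 233 exon bases with Plekhh3 on the opposite strand, whose mean count was 72.2 beside 1910 for Cntnap1.

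For the remaining 6 members, CPZ and CTL values overlapped and adjusted p by edgeR lay between 0.529 and 0.902. The sodium channel gene Scn8a had a change of -5.81% (95% interval -16.1% to 5.79%), and Cntn1 one of -4.77% (-13.8% to 5.26%). Among the potassium channel genes, Kcna1 had -5.30% (-19.8% to 11.9%) and Kcna2 had -2.37% (-13.8% to 10.5%). Cntnap2, whose product clusters these channels, had -1.46% (-10.4% to 8.40%), and Nfasc had -7.55% (-18.9% to 5.34%). A decrease of the size of Cntn2 lay outside each of these intervals. In CTL replicate 4, Kcna1 was at 61.8 CPM, whereas the other CTL libraries were at 90.5 to 97.2 CPM. Under pan-neuronal scaling, the fitted values of Scn8a, Cntn1, Cntnap2, Kcna1 and Kcna2 lay above 0, from 0.02 to 0.09.

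**Figure D2:**
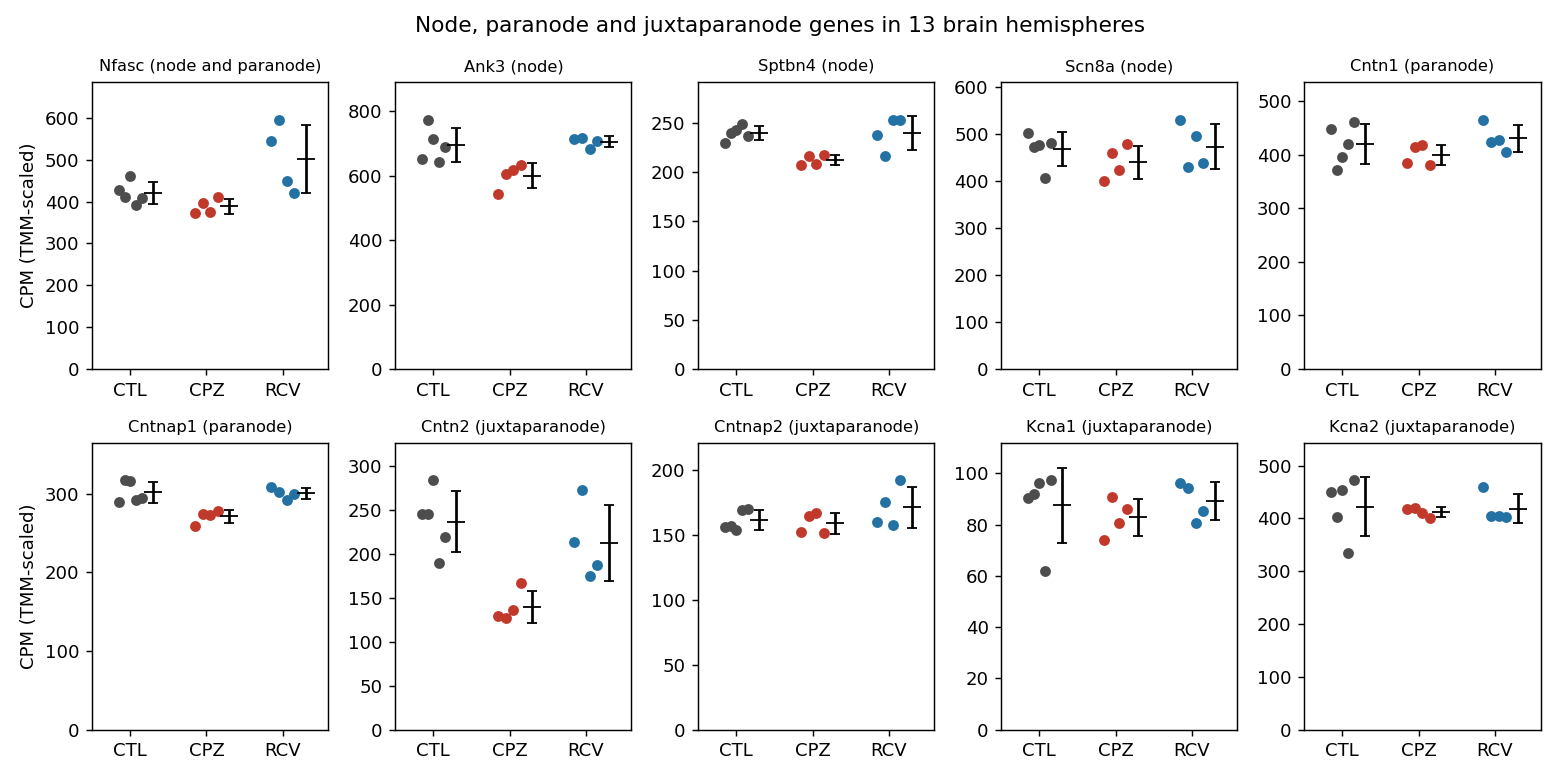
TMM-scaled CPM (y axis, from 0) of each member in CTL, CPZ and RCV libraries (x axis), with 1 point per mouse and a bar for mean ± SD (n = 5, 4 and 4). The 4 CPZ libraries lie at 127 to 167 CPM for Cntn2, below all CTL and RCV libraries.

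The comparison of CPZ with RCV asked which members differed between the end of feeding and 2 weeks later. It shares its CPZ libraries with the comparison above. Cntn2, Nfasc and Ank3 were lower in CPZ, 3 of 10 members, beside 7.01% of all genes called in either direction and 1.88% called lower. Cntn2 was lower by a log2 fold change of -0.61 (SE 0.15, adjusted p = 0.0232 by edgeR), Nfasc by -0.37 (SE 0.09, adjusted p = 0.0237) and Ank3 by -0.23 (SE 0.07, adjusted p = 0.0476). The median over the members was -0.13, and over all genes -0.01. For 4 members (Nfasc, Ank3, Cntnap1 and Cntn2) the CPZ values lay below all RCV values, beside 4.93% of all genes. Sptbn4 had a log2 fold change of -0.18 (adjusted p = 0.0836 by edgeR) and Cntnap1 one of -0.15 (adjusted p = 0.114), while the other 5 members lay between -0.11 and -0.02.

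Nfasc encodes the neuronal and the glial forms of neurofascin, which the counts per gene do not separate. Its CPM were 428, 412, 462, 393 and 410 in CTL replicates 1 to 5, and 372, 397, 376 and 412 in CPZ replicates 1 to 4. In RCV replicates 1 to 4 they were 544, 596, 449 and 420. RCV replicates 1 and 2 stood above every other library, whereas replicates 3 and 4 lay within the CTL range. Summed oligodendrocyte TPM was 3412 and 4506 in RCV replicates 1 and 2 and 2709 and 2737 in replicates 3 and 4, and the choroid plexus sum was 909 and 2680 in the first pair and 9.89 and 11.7 in the second. The following sums, each for RCV replicates 1 to 4, did not separate these pairs. Summed TPM of 6 excitatory forebrain genes was 921, 451, 966 and 753. For 7 inhibitory neuron genes it was 821, 1227, 910 and 1072. In replicate 2 the excitatory sum was the lowest and the inhibitory sum the highest of any library. The hippocampus sum was 55.2, 34.55, 117 and 14.1, and the striatum sum 557, 1191, 129 and 1715. The part of these markers in the Nfasc values was not tested.

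Each of the 3 calls of this comparison was lost in some settings. It was kept in 17 of 27 alternative settings for Cntn2, 15 for Nfasc and 8 for Ank3. Without CPZ replicate 1, CPZ replicate 2, CPZ replicate 3 or RCV replicate 1, no member passed the threshold, with log2 fold changes of -0.60 to -0.56 for Cntn2 and -0.38 to -0.33 for Nfasc in these fits, and with RCV replicate 2 left out the Nfasc change was -0.28 (adjusted p = 0.057 by edgeR). The Ank3 call was also lost without CTL replicates 1, 3 or 5 or RCV replicates 2, 3 or 4.

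**Figure D3:**
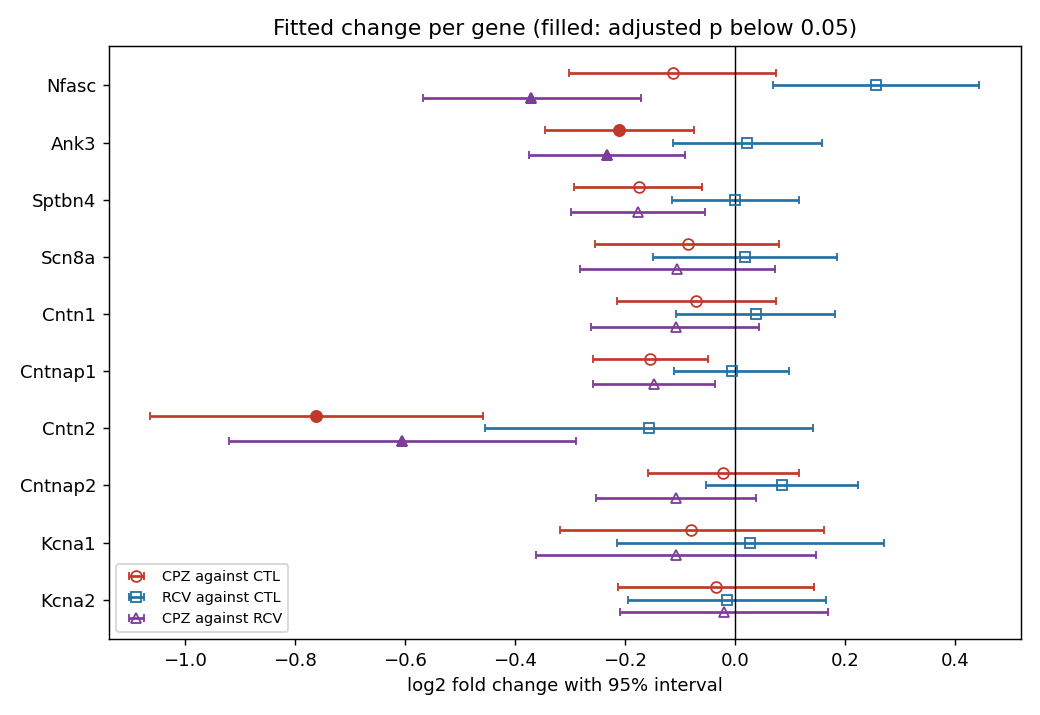
Fitted log2 fold change (x axis) of each member (y axis) with its 95% interval in the 3 comparisons. Filled symbols mark adjusted p below 0.05, namely Cntn2 and Ank3 in CPZ against CTL, and Cntn2, Nfasc and Ank3 in CPZ against RCV.

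The comparison of RCV with CTL asked whether a difference was left 2 weeks after cuprizone. None of the 10 members passed the threshold by edgeR, DESeq2 or limma-voom, and 1 had an unadjusted p below 0.05 by edgeR, beside 0.374% and 6.2% of all genes. RCV and CTL values overlapped for all 10 members, beside 2.9% of all genes that did not overlap in either direction. That member was Nfasc, with a log2 fold change of 0.26 (SE 0.09, 95% interval 0.07 to 0.44, adjusted p = 0.447 by edgeR), which was 0.16 without RCV replicate 2. Cntn2 had -0.16 (95% interval -0.45 to 0.14), which leaves room for a decrease of up to 27.0% and an increase of up to 10.4%. It was -0.30 without RCV replicate 2, -0.07 without RCV replicate 3 and -0.08 without CTL replicate 3. Ank3 had 0.02 (-0.11 to 0.16), and the other 7 members lay between -0.02 and 0.09. The sign of values this small depended on the setting for Ank3, Sptbn4, Scn8a, Cntn1, Cntnap1, Cntnap2, Kcna1 and Kcna2.

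The share of the CPZ difference that was left in each RCV mouse was computed as its log2 CPM distance from the CTL mean over that of the CPZ mean, where 0 is the CTL mean and 1 the CPZ mean. For Cntn2 it was 0.184, -0.289, 0.557 and 0.424 in RCV replicates 1 to 4, a mean of 0.219 ± 0.372 (SD, n = 4). For Ank3 it was -0.220, -0.244, 0.113 and -0.135, a mean of -0.121 ± 0.163. The spread between RCV mice was larger than the mean for both genes.

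Ratios of TPM within a library compared related members with each other, so that a factor shared by both genes drops out. The Cntn2 to Cntn1 ratio was 0.419, 0.485, 0.543, 0.335 and 0.356 in CTL replicates 1 to 5 and 0.271, 0.229, 0.244 and 0.329 in CPZ replicates 1 to 4. All 4 CPZ ratios lay below all CTL ratios. The means were 0.428 ± 0.0871 and 0.268 ± 0.0438, and the exact two-sided permutation test gave p = 0.0159, which became 0.190 after adjustment over the 12 tests of 4 ratios in 3 comparisons. In RCV the mean was 0.371 ± 0.0921. The other ratios were those of Cntnap1 to Cntnap2, Kcna1 to Kcna2 and Ank3 to Sptbn4, and the CPZ and CTL means were 2.12 ± 0.181 and 2.06 ± 0.265, 0.594 ± 0.0529 and 0.611 ± 0.0503, and 2.65 ± 0.152 and 2.74 ± 0.284, respectively. None of the 12 tests passed the threshold after adjustment, the lowest adjusted p being that of Cntn2 to Cntn1. The smallest p that the permutation test can give was 0.00794 against CTL and 0.0286 between CPZ and RCV. A single ratio could therefore not pass after adjustment over 12 tests, and the adjusted p cannot decide whether a ratio changed.

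**Figure D4:**
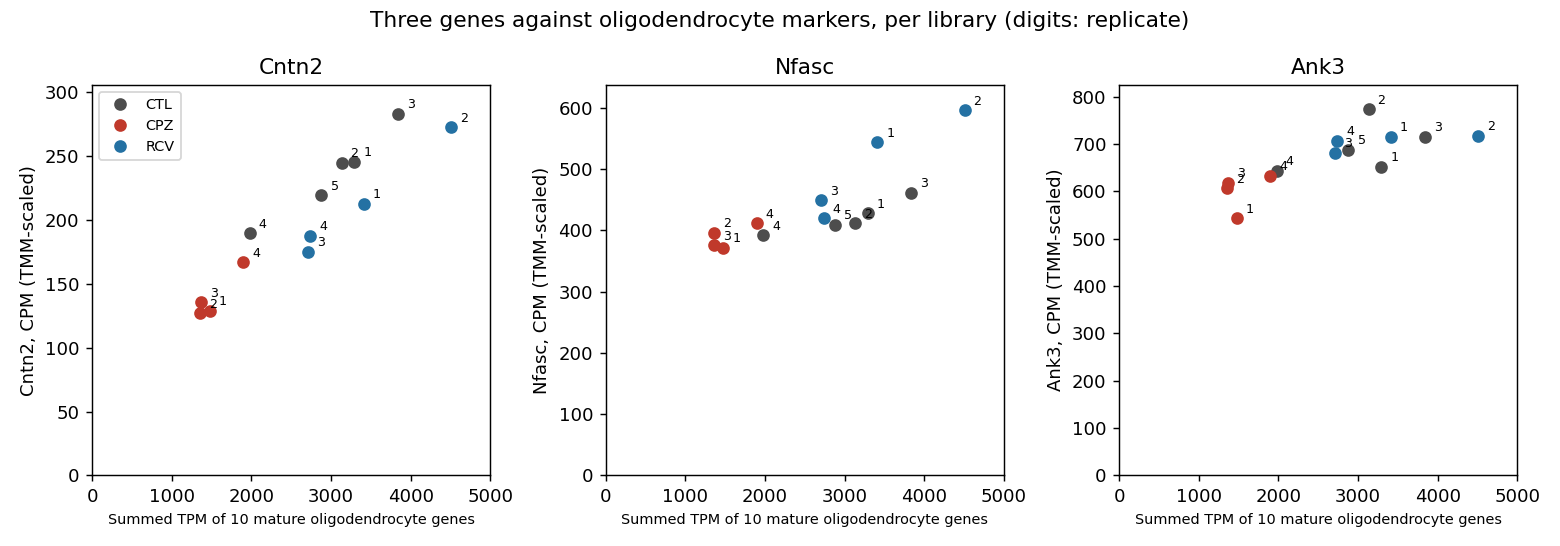
TMM-scaled CPM of Cntn2, Nfasc and Ank3 (y axes) against the summed TPM of 10 mature oligodendrocyte genes (x axis) in the 13 libraries, with digits giving the replicate. RCV replicate 2 has the highest oligodendrocyte sum, 4510 TPM, and the highest Nfasc value, 596 CPM.

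The genes whose pattern over the 13 libraries was most like that of a called member were found among 11091 genes whose mean log2 CPM was 3 or more. The measure was the root mean square difference of log2 CPM after each gene was set relative to its CTL mean, a description with no test. For Cntn2 they were Myo1d (0.0801), Septin4 (0.112) and Qdpr (0.113). These genes had log2 fold changes of -0.80, -0.88 and -0.74 between CPZ and CTL. For Ank3 they were Cntnap1 (0.0556), itself a member, Zfp664 (0.0657) and Cldnd1 (0.0678).

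Other genes of the nodal region were counted in 4 lists. Of 17 further genes of the node, with sodium channel subunits, potassium channels, Nrcam, L1cam, FGF homologous factors and alpha-II spectrin, none passed the threshold in any of the 3 comparisons by edgeR or limma-voom, and DESeq2 called 1 between CPZ and RCV and 0 in the others. An unadjusted p below 0.05 by edgeR was given for 3 of the 17 genes between CPZ and CTL, 2 between RCV and CTL and 2 between CPZ and RCV, beside 22.1%, 6.2% and 19.1% of all genes. Their median log2 fold change between CPZ and CTL was -0.16, beside -0.12 for the 10 pan-neuronal genes and -0.02 for all genes. The sodium channel gene Scn2a had -0.16 (adjusted p = 0.123 by edgeR). Of 15 genes of the juxtaparanodal scaffold and its potassium channels, 4 fell in CPZ relative to CTL and none rose. Of all genes, 2.5% were called lower in that comparison. These were Lgi3, a secreted ligand of the ADAM22 family of receptors (log2 fold change -0.45, SE 0.10), the channel gene Kcna6 (-0.37, SE 0.09), Epb41l3, the protein 4.1B linker of the paranode and juxtaparanode (-0.32, SE 0.07), and the scaffold gene Dlg4 (-0.21, SE 0.06). Adjusted p by edgeR was 0.00615 for Lgi3, 0.00748 for Kcna6, 0.00947 for Epb41l3 and, close to the threshold, 0.0411 for Dlg4. Pan-neuronal scaling is not reported here for these genes. Lgi3 and Epb41l3 were also lower in CPZ than in RCV, at -0.61 and -0.29, beside 1.88% of all genes called lower. The median of the list was -0.15 between CPZ and CTL, beside the same -0.12 for pan-neuronal genes and -0.02 for all genes.

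Of 7 genes of the nodal matrix, only Hapln2, the link protein of nodal hyaluronan made by oligodendrocytes, was called, at -1.47 (SE 0.21, adjusted p = 0.00021 by edgeR) between CPZ and CTL and -1.30 (SE 0.22) between CPZ and RCV. The shares of all genes called in either direction were 10.2% and 7.01% in these comparisons. The remaining matrix genes, such as Gldn (0.75, SE 0.33, adjusted p = 0.187), Bcan (-0.15, adjusted p = 0.236) and Tnr (0.00, adjusted p = 0.998), did not pass. Of 11 genes of the glial loop and its myelin membrane, 10 fell and 1 rose between CPZ and CTL, with a median of -1.11. That stands beside 10.2% of all genes called in either direction and 2.5% called lower. Among those that fell were Opalin, a membrane protein of the paranodal loop, at -1.96 (SE 0.17), Cldn11, a tight junction protein of myelin, at -1.62 (SE 0.25), and Ugt8a, an enzyme of galactolipid synthesis, at -1.42 (SE 0.25). The rise was that of Cd9 (1.60, SE 0.18), a tetraspanin that microglia also express. Between CPZ and RCV, 8 glial genes were lower and 1 higher, beside 7.01% of all genes called in either direction. Between RCV and CTL, edgeR, DESeq2 and limma-voom called none of the 50 genes of the 4 lists, beside 0.374% of all genes by edgeR. An unadjusted p below 0.05 by edgeR was given for 3 of the 50, beside 6.2% of all genes.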

How the data were processed

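Bulk RNA-seq libraries of 13 mice were analysed. Per the labels and methods, mRNA libraries of a snap-frozen hemisphere were sequenced as paired reads and processed with RNASequest, and the processing notes of the submitters name STAR, RSEM and mm10 without roles or versions. The authors deposited estimated counts per gene, not scaled to depth, and TPM, scaled to transcript length and depth. Strandedness is not given in the sources used here. Estimated counts were rounded (4.45% were not whole), and 92 spike-in rows with 0 counts were left out.

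After filterByExpr and TMM scaling, genes were tested by the quasi-likelihood test (robust) of edgeR 4.0.16 in R 4.3.3, with all libraries in the fit and 1 mean per group. P values were adjusted over 14985 genes with a threshold of 0.05. Standard errors were derived from the F statistic. Levels between genes were compared as TPM, and differences between groups as TMM-scaled CPM, with a prior count of 2 on the log2 scale. The members, lists and tests were chosen with earlier results of these data known. The text names every member, the 3 genes most like each member called against CTL, and up to 5 called genes of each of 4 lists with the largest changes. Some genes that this rule would name are not reported here. Scn2a, Gldn, Bcan and Tnr, named as genes that were not called, were chosen after their values were seen, as was Plekhh3 for its overlap. Groups came from the labels, where titles of RCV libraries begin with "Veh" and the treatment field gives the recovery. The groups share replicate numbers, but no label ties a number to a litter or batch. The alternatives were other scalings, filters, covariates, DESeq2 1.42.0, limma 3.58.1 on counts or TPM (pseudocount 1 or 0.1), a replicate block and each library left out. The scaling to pan-neuronal genes, the motif search and the transcript length check were added after values had been seen. The test was tested on simulated data. Libraries of a group differed by more than counting error, with a chi-square per gene of 4.50 to 17.8 over 22 pairs.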

Additional observations from a re-analysis of the deposited data

Results flagged for a closer look

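Among 42 groups of 4 or 5 values, 3 had a library far from the others, where chance gives about 2.1 (1 in 20). Kcna1 was at 61.8 CPM in CTL replicate 4, and the other CTL libraries were at 90.5 to 97.2 CPM. Kcna2 was at 459 CPM in RCV replicate 1, and the other RCV libraries were at 403 to 405 CPM. The TPM ratio of Cntnap1 to Cntnap2 was 1.85 in CPZ replicate 3, and it was 2.18 to 2.24 in the other CPZ libraries.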

How the results depend on the processing

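The Cntn2 fall between CPZ and CTL kept its call in all 27 alternatives. The number of members called between CPZ and CTL, 2 as reported, was 1 with a minimum absolute log2 fold change of 0.25, DESeq2 size factors, no scaling beyond the library total, scaling to pan-neuronal genes (chosen after seeing the data), no filter on counts, 10 counts in every library, the cerebellum and hindbrain covariate, and only the 2 groups compared. It was 4 with the DESeq2 Wald test, 3 with limma-voom and 1 to 3 with a library left out. With the hippocampus covariate it stayed at 2, and at 3 between CPZ and RCV. The hippocampus score used 6 of 7 listed genes, and the cerebellum and hindbrain score only 4 of 14. Between CPZ and RCV, 3 as reported, it was 0 with pan-neuronal scaling and with limma on TPM in all 3 forms, 1 with no filter on counts and with the cerebellum and hindbrain covariate, 5 with the DESeq2 Wald test, and 0 to 3 with a library left out. With the replicate number as a block, 1 member was called between CPZ and CTL (Cntn2), 0 between RCV and CTL and 0 between CPZ and RCV, where Cntn2 had a log2 fold change of -0.59 and an adjusted p of 0.101 by edgeR. Same-numbered libraries correlated at -0.199 to 0.136 over 12 pairs, 3 of them over 0.1. Differently numbered pairs reached -0.205 and 0.265. These values showed no pairing by number but cannot decide whether a number marks a litter or batch.

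Genes called between CPZ and CTL, 1522 as reported, were 993 with limma on log2(TPM + 1) and no filter and 986 with the cerebellum and hindbrain covariate, and 1078 to 1680 with a library left out. Between RCV and CTL, 56 as reported, they were 124 with the DESeq2 Wald test, 16 with limma-voom, 16 with limma on unfiltered log2(TPM + 1), 20 with at least 10 counts in every library, and 21 to 87 with a library left out. Between CPZ and RCV, 1050 as reported, they were 584, 503 and 477 with limma on log2(TPM + 1), log2(TPM + 0.1) and unfiltered log2(TPM + 1), 501 with the cerebellum and hindbrain covariate, and 632 to 1170 with a library left out. Of the called genes, 75.4% were higher in CPZ than in CTL as reported and 91.7% under pan-neuronal scaling, and 73.2% and 84.1% were higher in CPZ than in RCV.

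Signs changed in 55 fold changes of members, none called as reported or as changed. Between CPZ and CTL under pan-neuronal scaling, log2 fold changes were 0.02 (Scn8a), 0.043 (Cntn1), 0.09 (Cntnap2), 0.027 (Kcna1) and 0.076 (Kcna2), and Kcna2 was 0.016 with the replicate block. Between RCV and CTL, Sptbn4 was -0.017 with no scaling, -0.001 with limma-voom, -0.058, -0.059 and -0.058 in the 3 limma fits on TPM, -0.009 with no filter on counts, -0.004 with the replicate block and -0.002 with only the 2 groups. Scn8a was -0.007 in the 3 limma fits on TPM and -0.011 with the hippocampus covariate. Cntnap2 was -0.203, -0.206 and -0.203 in the limma fits on TPM. Cntnap1 was 0.061 and Kcna2 0.054 under pan-neuronal scaling, and Kcna2 0.034 with the replicate block. Between CPZ and RCV, Kcna2 was 0.016 with no scaling, 0.022 under pan-neuronal scaling, 0.008 with no filter on counts and 0.008 with the hippocampus covariate. With a library left out, the values between CPZ and CTL were -0.04 to 0.005 for Cntnap2 and -0.108 to 0.014 for Kcna2, and between CPZ and RCV -0.036 to 0.028 for Kcna2. Between RCV and CTL they were -0.004 to 0.065 for Ank3, -0.03 to 0.047 for Sptbn4, -0.041 to 0.063 for Scn8a, -0.003 to 0.07 for Cntn1, -0.021 to 0.012 for Cntnap1, -0.074 to 0.074 for Kcna1 and -0.088 to 0.024 for Kcna2. The log2 ratios between CPZ and CTL were -0.01 to 0.11 for Cntnap1 to Cntnap2 and -0.086 to 0.02 for Kcna1 to Kcna2. The log2 ratio of Cntnap1 to Cntnap2 was -0.13 on counts between CPZ and CTL and -0.089 between RCV and CTL. The cause of these changes was not tested. Counting error was as large as the spread between mice for Sptbn4 in CPZ and Cntnap1 in RCV.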

Other observations

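The count and TPM tables did not give the same sign for Cntnap2 between RCV and CTL, with a log2 fold change of 0.09 on counts and -0.20 on log2(TPM + 1), neither of them called. The mean transcript length that the tables imply (count over TPM, calibrated on 337 genes with a single transcript) was 7273 ± 428 bases in RCV (n = 4) and 6088 ± 656 bases in CTL (n = 5) for Cntnap2. The exact two-sided permutation test gave p = 0.0238, and the adjusted p was 0.714 over the 30 tests of all members and comparisons. With 5 and 4 mice this test cannot give a p below 0.00794. A single gene could therefore not pass after adjustment over 30 tests, and the check cannot decide whether a length differed.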
